A study of Homo sapiens with 24 samples.

Results

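The 10 genes described here are cytokine genes induced by NF-kB and inhibitor genes that NF-kB induces against itself: the chemokines CXCL1, CXCL2, CXCL3, CXCL8 and CCL20, the interleukins IL1A, IL1B and IL6, and the feedback inhibitors TNFAIP3 and NFKBIA. They were chosen by name, with earlier results of these data known, so counts of called members beside the share of all genes are a description. All 10 were matched by Ensembl identifier among the 58051 genes of the count tables. RNA was sequenced from 4 human cancer cell lines: SW620, a colorectal adenocarcinoma line (COAD), BxPC-3, a pancreatic adenocarcinoma line (PAAD), LNCaP, a prostatic adenocarcinoma line (PRAD), and HCC-70, a triple-negative breast cancer line (TNBC). Each line had 3 control libraries and 3 libraries of cells kept for 48 h with Ocoxin, an oral supplement made of green tea, licorice and cinnamon extracts with vitamins, minerals and amino acids, at a dilution of 1:700 in COAD and TNBC, 1:500 in PAAD and 1:50 in PRAD. No gene was edited. Each cancer type is represented by 1 established line, RNA came from the cells that were still attached, and treated cells were in medium with little serum; whether control cells had the same medium is not given in the sources used here. Because the dilution differed between lines, line and dilution cannot be told apart except between COAD and TNBC. Nothing says that the 3 libraries of a group came from separate cultures, so the p-values measure the spread between these libraries, which may be technical.

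NF-kB is a family of dimeric transcription factors held in the cytoplasm by inhibitor proteins. Signals from receptors for tumor necrosis factor, interleukin-1 or bacterial products activate kinases that mark the inhibitor for destruction, after which the dimers enter the nucleus and induce cytokines, adhesion molecules and survival genes. They also induce their own brakes: NFKBIA encodes IkB alpha, which recaptures the dimers, and TNFAIP3 encodes A20, a ubiquitin-editing enzyme that silences the upstream kinases. In carcinomas, the chemokines of this group attract neutrophils (CXCL1, CXCL2, CXCL3 and CXCL8) or lymphocytes and dendritic cells (CCL20).

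Total counts ranged between 25160757 and 34397801 in COAD, where the Ocoxin libraries were the shallower ones, 31101178 and 34231106 in PAAD, 36863490 and 39009959 in TNBC, and 9063968 and 9520969 in PRAD, whose table was counted with another setting. A count of 3 in a library, taken as the floor of detection, corresponded to at most 0.0972 CPM (counts per 1000000 counts of the scaled library) in COAD, 0.0952 in PAAD, 0.0805 in TNBC and 0.328 in PRAD. Of the markers listed for each line, the highest in that line were VIL1 in COAD (76.0 RPKM in control libraries, where RPKM is CPM divided by the exonic length in kilobases), CEACAM6 in PAAD (428 RPKM), KLK3 in PRAD (87.0 RPKM) and KRT5 in TNBC (373 RPKM), although 3 of the 6 COAD markers did not exceed 1 RPKM. The lists did not tell PAAD from TNBC: in control libraries, the TNBC markers summed to 632 to 706 RPKM in TNBC and 1664 to 1881 RPKM in PAAD, and the PAAD markers to 1206 to 1340 RPKM in PAAD and 1194 to 1317 RPKM in TNBC. Of the receptors whose lack defines triple-negative tumors, PGR was at 0 in all TNBC libraries, ESR1 at 0.404 to 0.600 RPKM and ERBB2 at 23.4 to 27.8 RPKM. Blood cells also express several of the 10 genes, and their general marker PTPRC did not exceed 0.0255 RPKM in any library. The summed level of 8 myeloid and lymphoid markers was nonetheless 69.8 to 73.2 RPKM in TNBC control libraries and 56.1 to 64.1 RPKM with Ocoxin, nearly all of it CD14, and it was 5.61 to 6.04 RPKM in COAD control libraries and 8.61 to 9.11 RPKM with Ocoxin, mostly LYZ. The part of these markers in the results was not tested.

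CXCL8, CXCL1, CXCL3 and CXCL2 lie within 358.8 kb of chromosome 4, and IL1A and IL1B are neighbours on chromosome 2 with a gap of 45.2 kb (hg38). All 10 genes had an entry among 35116 RefSeq promoter sequences (GRCh38.p14), each running from 250 bases before to 50 bases after the annotated start. The 10-letter kB consensus, searched on both strands, was present in 7 of the 10 promoters and in 11.3% of all promoters. GGAATTTCC, a shorter kB site which overlaps that consensus in CXCL1, CXCL2, CXCL3 and NFKBIA, was present in 5 of the 10 and in 0.461% of all promoters. With either motif counted, 8 of the 10 genes had a match, the others being IL1A and IL1B. The motif TGACTCA, bound by AP-1 factors, was found in CXCL8 and IL1A and in 4.95% of all promoters. A match of letters is a description and no evidence of binding.

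The bases before the start of CXCL1, CCL20 and NFKBIA are shown in full because the annotation used for counting has no exon of these genes before the RefSeq start. Capitals mark matches to the kB consensus or GGAATTTCC, and positions are counted backwards from the base before the RefSeq start (-1). The CXCL1 stretch is chr4:73869253-73869392 (plus strand), that of CCL20 is chr2:227813702-227813841 (plus strand), and that of NFKBIA is chr14:35404750-35404889 (minus strand), each covering -140 to -1.
CXCL1: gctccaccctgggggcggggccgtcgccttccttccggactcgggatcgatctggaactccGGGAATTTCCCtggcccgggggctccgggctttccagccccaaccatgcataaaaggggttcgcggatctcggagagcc
CCL20: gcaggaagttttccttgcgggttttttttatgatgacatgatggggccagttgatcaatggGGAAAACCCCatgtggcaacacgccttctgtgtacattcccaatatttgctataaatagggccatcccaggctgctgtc
NFKBIA: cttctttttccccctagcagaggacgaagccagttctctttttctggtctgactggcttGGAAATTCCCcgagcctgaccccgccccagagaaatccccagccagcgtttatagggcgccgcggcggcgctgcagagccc

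For the other genes with a match, the 30 bases around it are shown, so that the chemokine sites can be compared with each other. They are chr4:74099253-74099282 (minus strand) for CXCL2, chr4:74038748-74038777 (minus strand) for CXCL3, chr4:73740468-73740497 (plus strand) for CXCL8, chr6:137867188-137867217 (plus strand) for TNFAIP3 and chr7:22727117-22727146 (plus strand) for IL6.
CXCL2: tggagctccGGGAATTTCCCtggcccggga
CXCL3: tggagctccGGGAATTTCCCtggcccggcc
CXCL8: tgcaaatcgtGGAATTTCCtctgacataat
TNFAIP3: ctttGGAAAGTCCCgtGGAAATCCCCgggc
IL6: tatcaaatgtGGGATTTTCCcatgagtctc
CXCL1, CXCL2 and CXCL3 carry the same site, and over the 30 bases around it CXCL1 differs from CXCL2 at 2 positions and from CXCL3 at 3. TNFAIP3 is the member with 2 separate kB matches, at -67 to -58 and at -55 to -46. All 30 bases shown for CXCL2, CXCL3, TNFAIP3 and IL6 lie inside the gene as annotated for counting, although before the RefSeq start. Those of CXCL8 lie outside it.

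Baseline levels of the 10 genes were compared between the control libraries of COAD, PAAD and TNBC, which were counted in the same table, after scaling the 9 libraries together. PAAD stood at the top for every gene. All 10 were called higher in PAAD than in COAD and than in TNBC (edgeR quasi-likelihood test, adjusted p under 0.05), where 78.6% and 77.1% of the genes tested differed in either direction and 38.4% and 39.7% were higher in PAAD. IL1A, IL1B and IL6 entered these comparisons only through their level in PAAD, so their call was given by the filter. In contrast, TNBC and COAD differed in 7 of the 10 genes, 2 higher and 5 lower in TNBC, beside 82.8% of all genes tested, of which 40.5% were higher and 42.4% lower. The higher genes were NFKBIA and IL1B, and the call of IL1B rests on 2, 2 and 10 counts in TNBC against 0 in COAD.

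**Figure D1:**
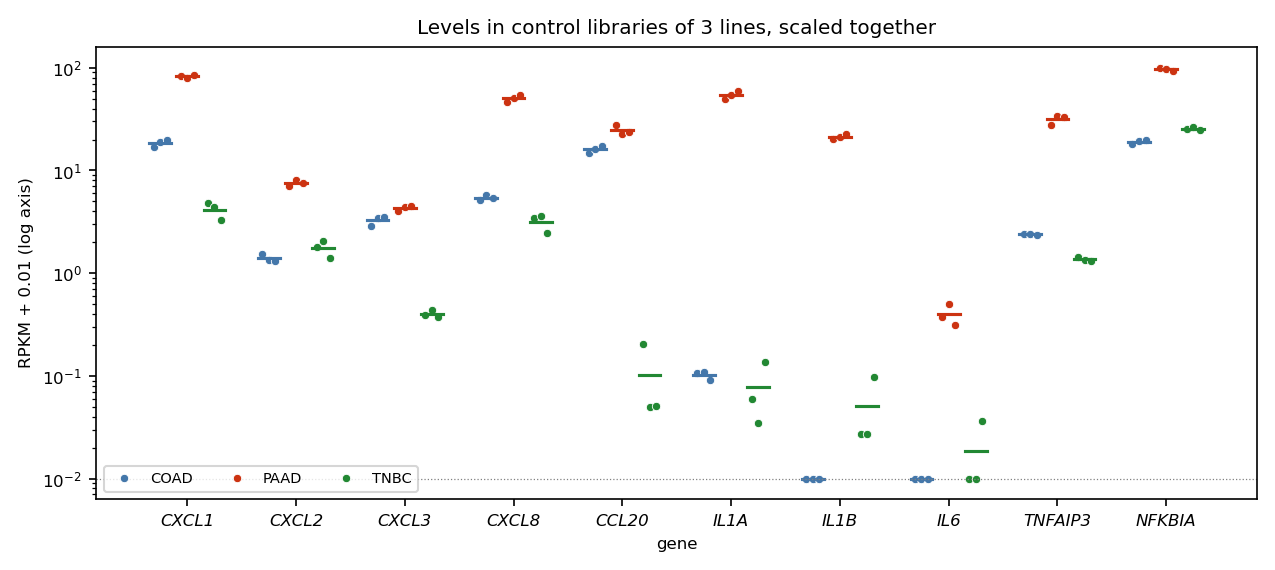
Levels of the 10 genes in the control libraries of COAD, PAAD and TNBC, as RPKM plus 0.01 on a log axis after scaling the 9 libraries together; points are libraries, bars are means, and the dotted line marks a count of 0. PAAD is highest for each gene, from 0.387 RPKM for IL6 to 96.6 RPKM for NFKBIA, and IL1B and IL6 lie on the dotted line in COAD.

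Among the neutrophil chemokines, CXCL1 reached 82.7 ± 2.80 RPKM in PAAD, 18.6 ± 1.42 RPKM in COAD and 4.14 ± 0.783 RPKM in TNBC (mean ± SD, n = 3 here and throughout). CXCL8, the chemokine also known as interleukin-8, was at 50.8 ± 4.22 RPKM in PAAD, 5.41 ± 0.293 RPKM in COAD and 3.15 ± 0.603 RPKM in TNBC. Thus both descended in the order PAAD, COAD, TNBC with no overlap between lines. CXCL8 in COAD exceeded that in TNBC 1.72-fold (edgeR adjusted p = 1.87e-06), the smallest step of the order. CXCL2 was at 7.53 ± 0.543 RPKM in PAAD, 1.39 ± 0.123 RPKM in COAD and 1.75 ± 0.333 RPKM in TNBC, and the libraries of the last pair overlapped (edgeR adjusted p = 0.0869). CXCL3 was close in PAAD and COAD, at 4.32 ± 0.288 and 3.26 ± 0.321 RPKM, a 1.32-fold difference (edgeR adjusted p = 0.00677; 0.0512 without COAD control 1), but at 0.392 ± 0.0338 RPKM in TNBC.

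CCL20, the ligand of the receptor CCR6, was expressed in PAAD and COAD. It was at 24.7 ± 2.70 RPKM in PAAD and 16.1 ± 1.28 RPKM in COAD, a 1.53-fold difference (edgeR adjusted p = 2.77e-05). In TNBC it had 10, 2 and 2 counts. IL1A and IL1B, the ligands of the interleukin-1 receptor, were PAAD genes: IL1A was at 54.3 ± 4.80 RPKM and IL1B at 21.3 ± 1.12 RPKM there. IL1A had 6 to 8 counts in COAD control libraries and 2 to 10 in those of TNBC. IL1B was listed at 0 in all COAD libraries, so its level in PAAD was at least 755-fold higher, taking 3 counts per library as the floor; in TNBC control libraries it had 2, 2 and 10 counts. IL6 was low even in PAAD, with 20 to 30 counts in control libraries (0.387 ± 0.0949 RPKM), and at 0 in COAD, which makes it at least 9.15-fold higher in PAAD. Of the exonic bases of IL6, 428 are shared with the antisense gene IL6-AS1, and the strand was not used in counting.

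The feedback inhibitors were expressed in every line. NFKBIA was at 96.6 ± 4.29 RPKM in PAAD, 25.4 ± 0.865 RPKM in TNBC and 19.1 ± 0.850 RPKM in COAD, and the last step, 1.33-fold, was also called (edgeR adjusted p = 1.57e-06). TNFAIP3 was at 31.6 ± 3.34 RPKM in PAAD, 2.38 ± 0.0270 RPKM in COAD and 1.35 ± 0.0694 RPKM in TNBC. NFKBIA was hence the member with the highest level per length in PAAD and TNBC, whereas in COAD the libraries of CXCL1 and NFKBIA overlapped. PRAD, counted in its own table, had 2 of the 10 genes above the filter: NFKBIA at 23.1 ± 1.08 RPKM and TNFAIP3 at 1.06 ± 0.223 RPKM in control libraries. CXCL1 and CXCL3 were at 0 in all 6 PRAD libraries, and the other 6 genes did not exceed 4 counts in a PRAD control library.

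CXCL1, CXCL8 and TNFAIP3 were called in opposite directions in COAD and TNBC, the lines that received the same dilution of Ocoxin. In COAD, CXCL1, CXCL8, CCL20 and TNFAIP3 rose and none fell. In TNBC, CXCL1, CXCL8, TNFAIP3 and NFKBIA fell and none rose. In PAAD, where the control levels were highest, CCL20, IL1A and IL1B rose and the other members were not called, and in PRAD no member was called.

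**Figure D2:**
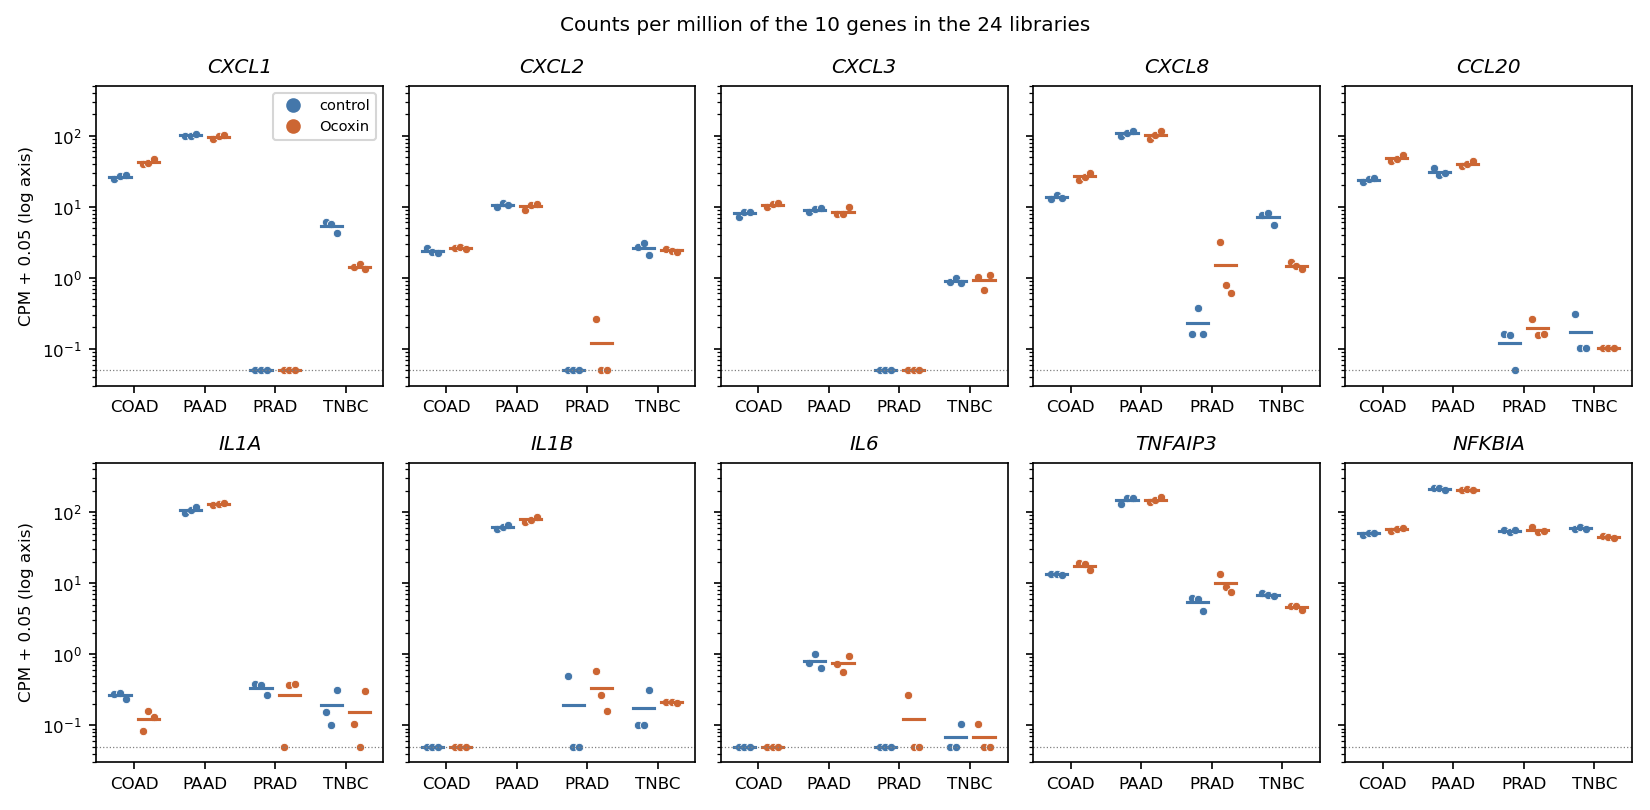
CPM plus 0.05, on a log axis, of the 10 genes in each control (blue) and Ocoxin (orange) library of the 4 lines, scaled within each line; points are libraries, bars are means, and the dotted line marks a count of 0. The CXCL8 libraries with Ocoxin lie above the controls in COAD (24.1 to 29.8 against 12.9 to 14.4 CPM) and below them in TNBC (1.27 to 1.61 against 5.53 to 8.03 CPM).

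In COAD, 7 of the 10 genes passed the filter on low counts and 4 of them were called, all higher; over all genes, 2.55% were called and 1.47% were called higher. CCL20 was at 21.99, 24.16 and 25.27 CPM in control libraries and at 43.7, 47.4 and 53.6 CPM with Ocoxin. Every treated library therefore lay far above every control. The log2 fold change of CCL20 was 1.02 (SE 0.079), or 2.02-fold (edgeR adjusted p = 6.79e-08). CXCL8 went from 12.9, 14.4 and 13.4 CPM to 24.1, 26.3 and 29.8 CPM, again with a clear gap, and its log2 fold change was 0.97 (SE 0.088, edgeR adjusted p = 7.37e-07). CXCL1 was at 24.5, 27.1 and 28.0 CPM without and at 39.3, 41.2 and 46.4 CPM with Ocoxin, a log2 fold change of 0.67 (SE 0.076, edgeR adjusted p = 1.73e-05). The 3 chemokines kept their call under each of the 14 alternative analyses.

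The remaining members moved less in COAD. TNFAIP3 was at 13.5, 13.4 and 12.9 CPM in control libraries and at 18.97, 18.35 and 15.2 CPM with Ocoxin, a log2 fold change of 0.40 (SE 0.094, edgeR adjusted p = 0.0221). The treated libraries were all higher, the third by the least, and leaving out control 1 (adjusted p = 0.0757), control 2 (0.0865), Ocoxin 1 (0.0579) or Ocoxin 2 (0.131) ended the call. CXCL3 had the same log2 fold change, 0.40 (SE 0.11), without reaching the threshold (edgeR adjusted p = 0.0592): its libraries were at 7.13, 8.41 and 8.39 CPM and at 9.77, 10.7 and 11.2 CPM, which do not overlap. CXCL3 was called in 5 of 14 alternatives: with no filter on low counts (adjusted p = 0.032), with length and GC trends removed (0.0473), with the replicate block (0.00486) and without Ocoxin 1 (0.0353) or control 3 (0.0435). NFKBIA did not overlap either, at 48.1 to 51.5 CPM and 54.3 to 60.0 CPM (log2 fold change 0.20, SE 0.062, edgeR adjusted p = 0.0889; 0.036 without Ocoxin 1 and 0.00432 with the block). CXCL2 was at 2.14 to 2.56 CPM and at 2.46 to 2.66 CPM, with overlap (log2 fold change 0.16, SE 0.19, edgeR adjusted p = 0.753). In all, 6 of the 7 tested members had treated libraries entirely above the controls, beside 10.2% of all genes tested in COAD. IL1A, with 7, 8 and 6 counts in control and 1, 3 and 2 counts in Ocoxin libraries, was too low to be tested and lay on the other side. Beside these changes, LYZ went from 5.32 ± 0.161 to 8.37 ± 0.138 RPKM in COAD while PTPRC stayed at or below 0.00946 RPKM.

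In TNBC, 6 of the 10 genes passed the filter and 4 were called, all lower, in a line where 21% of all genes were called and 11.3% were called lower. CXCL8 was at 7.69, 8.03 and 5.53 CPM in control libraries and at 1.61, 1.43 and 1.27 CPM with Ocoxin. Its log2 fold change was -2.30 (SE 0.18), a level 4.93-fold lower (edgeR adjusted p = 6.30e-06). The lowest control, the third, was still far above the highest treated library. CXCL1 was at 6.13, 5.59 and 4.19 CPM and at 1.35, 1.51 and 1.29 CPM, a level 3.83-fold lower (log2 fold change -1.94, SE 0.18, edgeR adjusted p = 2.47e-05).

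Both inhibitors fell in TNBC as well, by less than CXCL1 and CXCL8. TNFAIP3 was at 7.14, 6.67 and 6.47 CPM without and at 4.76, 4.68 and 4.09 CPM with Ocoxin, and its log2 fold change was -0.58 (SE 0.12, edgeR adjusted p = 0.00408). NFKBIA went from 58.8, 61.9 and 58.0 CPM to 45.5, 44.5 and 43.6 CPM, with a log2 fold change of -0.42 (SE 0.049, edgeR adjusted p = 0.000126). Neither gene's groups overlapped, and the 4 calls held under every alternative analysis run, also with the replicate number as a block, under which 33.9% of all genes were called. CXCL2 and CXCL3 were not called: CXCL2 was at 2.07 to 3.05 CPM in control and 2.25 to 2.53 CPM in Ocoxin libraries (log2 fold change -0.13, SE 0.18, edgeR adjusted p = 0.668), and CXCL3 at 0.805 to 0.945 CPM and 0.619 to 1.03 CPM (log2 fold change 0.024, SE 0.28, edgeR adjusted p = 0.965). With 23 to 40 counts per library, the precision for CXCL3 was low. CCL20, IL1A, IL1B and IL6 had at most 10 counts in a TNBC library and were not tested. CD14 was at 71.2 ± 1.67 RPKM in control and 61.1 ± 4.55 RPKM in Ocoxin libraries of TNBC. PTPRC was at 0 in the controls and at most 0.0124 RPKM with Ocoxin. The sum of 5 epithelial markers was also lower, at 1031 to 1069 RPKM in control and 804 to 877 RPKM in Ocoxin libraries of TNBC. A lower share of cells of a kind and less RNA per cell cannot be told apart in such bulk samples. The part of these markers in the results was not tested.

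**Figure D3:**
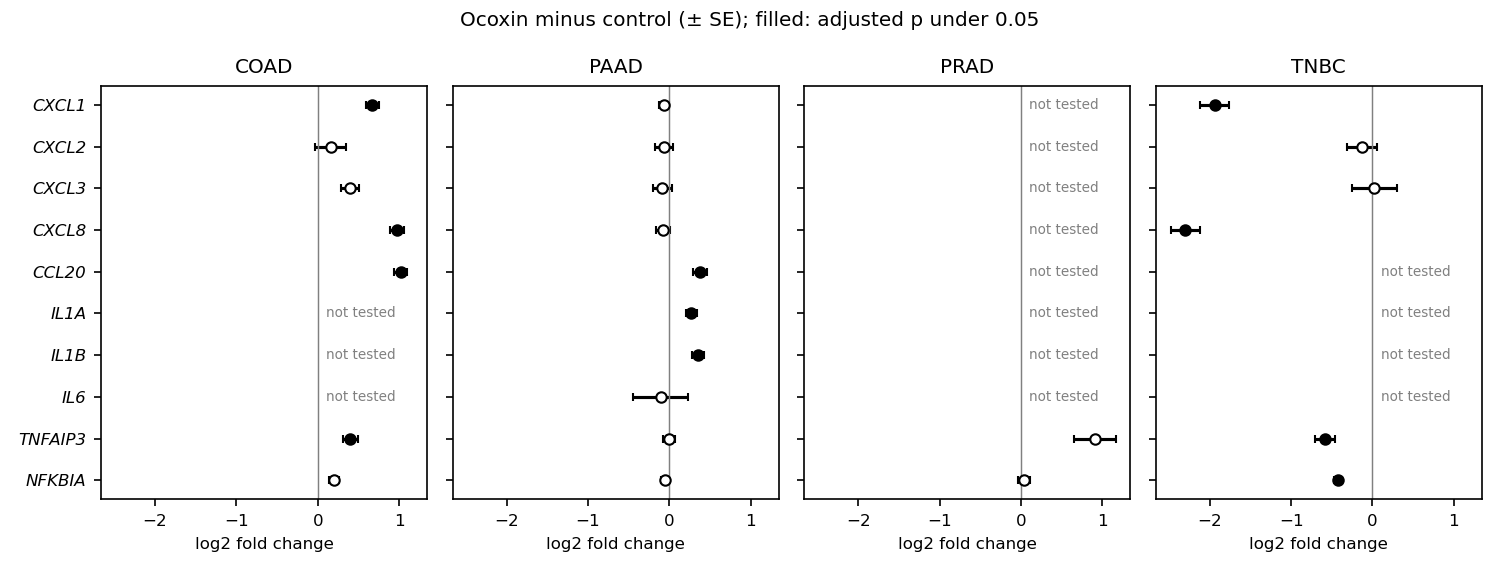
Log2 fold change of each gene with Ocoxin (x axis, ± SE from edgeR, 3 libraries per group) in the 4 lines; filled circles have an adjusted p under 0.05, and genes below the count filter are written as not tested. CXCL8 stands at 0.97 in COAD and -2.30 in TNBC, and the highest PAAD value is 0.37.

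In PAAD, all 10 genes passed the filter and 3 were called, all higher; over all genes, 8.33% were called and 4.72% were called higher. IL1B was at 58.4, 61.9 and 65.7 CPM in control libraries and at 73.2, 78.0 and 86.1 CPM with Ocoxin, 1.28-fold higher (log2 fold change 0.35, SE 0.071, edgeR adjusted p = 0.00643), and it kept its call under every alternative. CCL20 went from 34.6, 28.3 and 30.2 CPM to 37.6, 39.6 and 43.4 CPM, with a narrow gap between control 1 and Ocoxin 1 (log2 fold change 0.37, SE 0.084, edgeR adjusted p = 0.0121; 0.0813 without control 2). IL1A was at 97.8, 108 and 118 CPM and at 126, 128 and 136 CPM, without overlap (log2 fold change 0.27, SE 0.069, edgeR adjusted p = 0.0241). Leaving out control 1 (adjusted p = 0.0844), control 2 (0.0897), Ocoxin 1 (0.0601), Ocoxin 2 (0.0803) or Ocoxin 3 (0.0564) ended the call of IL1A. Without PAAD control 2, IL1B alone of the 10 genes was called.

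The neutrophil chemokines and the inhibitors of PAAD overlapped between treated and control libraries. CXCL1 was at 97.5 to 105 CPM in control and 89.6 to 102 CPM in Ocoxin libraries, and CXCL8 at 98.3 to 118 CPM and 88.6 to 116 CPM. Their log2 fold changes were -0.062 (SE 0.063) and -0.076 (SE 0.087). TNFAIP3, at 130 to 161 CPM and 138 to 161 CPM, had a log2 fold change of -0.0025 (SE 0.078), and NFKBIA, at 206 to 222 CPM and 205 to 209 CPM, one of -0.053 (SE 0.053). CXCL2 and CXCL3 gave -0.061 (SE 0.11) and -0.088 (SE 0.12). The adjusted p of these 6 genes ranged from 0.602 to 0.989 (edgeR). IL6, with 17 to 31 counts per library over both groups, had a log2 fold change of -0.10 (SE 0.34, edgeR adjusted p = 0.893). The sum of 9 fibroblast and endothelial markers was 14.4 to 15.6 RPKM in control and 19.2 to 21.9 RPKM in Ocoxin libraries of PAAD, mostly CDH5, whereas that of 5 epithelial markers was 902 to 1040 RPKM and 841 to 926 RPKM; their part in the results was not tested either.

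In PRAD, neither tested member was called, while 2.98% of all genes were; DESeq2 called 0 as well, and TNFAIP3 had an unadjusted p of 0.00814 in edgeR. TNFAIP3 was at 6.11, 5.85 and 4.04 CPM in control libraries and at 13.6, 8.90 and 7.53 CPM with Ocoxin. The groups do not overlap and the first Ocoxin library was the highest. The log2 fold change was 0.91 (SE 0.26, edgeR adjusted p = 0.104; 0.00965 to 0.224 over the alternatives). NFKBIA was at 51.9 to 56.5 CPM and 52.7 to 61.5 CPM, with a log2 fold change of 0.033 (SE 0.073, edgeR adjusted p = 0.843). CXCL8 had 1, 3 and 1 counts in control and 29, 7 and 5 counts in Ocoxin libraries, below the filter. The ratio of its summed counts per depth was 8.20 (95% exact interval 3.24 to 26.6, for counting error only), and 3.63 (1.19 to 13.1) without Ocoxin 1, which held 29 of the 41 counts. When all genes with a count were tested, the adjusted p of CXCL8 was 0.174 (edgeR). The other members had at most 5 counts in a PRAD library.

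Responses were next set against each other in a joint fit of the 18 libraries of COAD, PAAD and TNBC, which tests the difference itself. Between TNBC and COAD, 4 members differed, all lower in TNBC, beside 7.85% of all genes in either direction and 4.46% lower. The difference, TNBC minus COAD on the log2 scale, was -3.28 for CXCL8 (SE 0.21, edgeR adjusted p = 1.25e-09), CXCL1 gave -2.62 (SE 0.17, edgeR adjusted p = 1.74e-11), TNFAIP3 gave -0.99 (SE 0.14, edgeR adjusted p = 4.48e-05) and NFKBIA gave -0.63 (SE 0.076, edgeR adjusted p = 3.18e-06). CXCL2, with a difference of -0.29 (SE 0.24), and CXCL3, with -0.38 (SE 0.26), did not pass (edgeR adjusted p = 0.514 and 0.427). These standard errors leave room for a moderate difference in both. CCL20, with at most 10 counts in a TNBC library, gave an edgeR adjusted p of 0.0633 (0.0163 to 0.621 over the alternatives).

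Between PAAD and TNBC, the same 4 genes were called, beside 4.56% of all genes in either direction and 2.75% higher in PAAD, with a response higher in PAAD by 2.22 for CXCL8, 1.87 for CXCL1, 0.58 for TNFAIP3 and 0.36 for NFKBIA on the log2 scale (edgeR adjusted p = 2.13e-07, 7.93e-09, 0.00748 and 0.00254). Between PAAD and COAD, 5 members were called, beside 3.96% of all genes in either direction and 1.96% lower in PAAD. The response in PAAD was lower for CXCL8 (-1.06, SE 0.15), CXCL1 (-0.74, SE 0.11), CCL20 (-0.65, SE 0.14), TNFAIP3 (-0.41, SE 0.12) and NFKBIA (-0.26, SE 0.074), with edgeR adjusted p of 0.000234, 0.00018, 0.00547, 0.0382 and 0.0382. The last 2 calls were lost under 9 and 15 of 25 alternatives, with adjusted p of up to 0.109 and 0.145. The count was 3 without COAD control 1, COAD control 2, COAD Ocoxin 2, PAAD control 2, PAAD Ocoxin 1 or PAAD Ocoxin 2. These comparisons share libraries and are not independent of each other.

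The wider pathway was followed through 8 lists with 115 genes, of which 114 were found in the tables. The lists, like the members, were chosen with earlier results of these data known. Their counts beside the share of all genes are a description. In COAD, 16 of 89 tested genes were called, 15 higher and 1 lower, beside 2.55% of all genes, 1.47% higher and 1.09% lower. In TNBC, 32 of 96 were called, 8 higher and 24 lower, beside 21% of all genes, 9.65% higher and 11.3% lower. With the replicate number as a block, 45 were called in TNBC, 12 higher and 33 lower, beside 33.9%. PAAD had 23 called of 105, 13 higher and 10 lower, beside 8.33%, 4.72% higher and 3.62% lower. PRAD had 2 of 77, both higher, which is no more than the 2.98% of all its genes. The median log2 fold change over the tested genes of the lists was 0.092 in COAD, -0.054 in TNBC, 0.019 in PAAD and 0.073 in PRAD, beside medians of -0.0053, 0.0056, 0.0027 and 0.0088 over all genes tested in these lines. Leaving out single libraries lowered the count to 7 in COAD (without control 2 or Ocoxin 2; 8 without control 1), to 21 in TNBC (without Ocoxin 1) and to 0 in PRAD (without control 2, control 3 or Ocoxin 2; 1 without control 1 or Ocoxin 1).

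**Figure D4:**
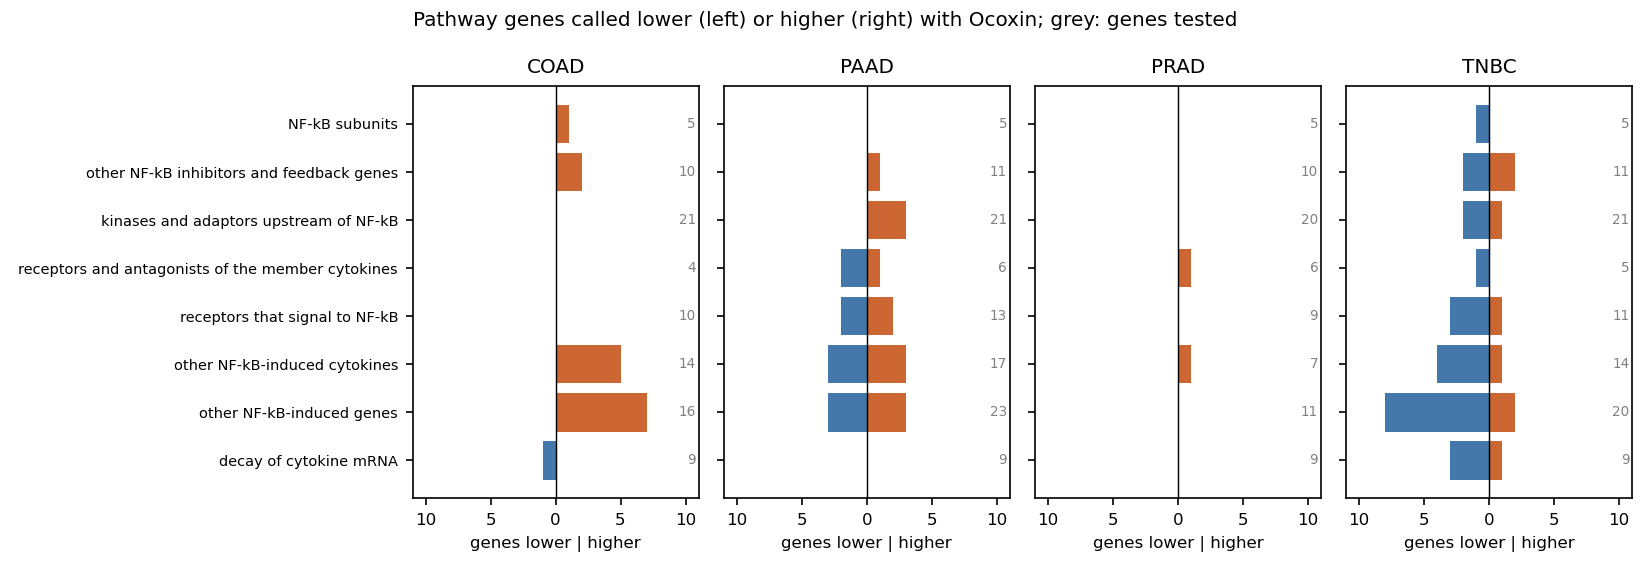
Number of genes of each pathway list called lower (blue, left) or higher (orange, right) with Ocoxin in the 4 lines, with the number of genes tested in grey. Of the other genes induced by NF-kB, 7 of 16 were higher in COAD, while 8 of 20 were lower and 2 higher in TNBC.

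Induced genes and cytokines held most of the calls in COAD, where 2.55% of all genes were called and 1.47% were called higher. Of 14 tested cytokines outside the 10 members, 5 were called, all higher. CSF3, the granulocyte growth factor, went from 0.628 ± 0.125 to 1.98 ± 0.513 CPM (log2 fold change 1.65, SE 0.30, edgeR adjusted p = 0.00374; up to 0.0532 over the alternatives), and IL32 from 3.04 ± 0.318 to 5.90 ± 1.22 CPM (log2 fold change 0.95, SE 0.17, edgeR adjusted p = 0.00328). Of 16 other induced genes, 7 were called, all higher. C3, the central complement protein, rose from 12.02, 13.35 and 13.95 CPM to 35.9, 32.0 and 34.8 CPM (log2 fold change 1.39, SE 0.080, edgeR adjusted p = 4.91e-10). LCN2, an iron-scavenging secreted protein, went from 0.455 ± 0.0914 to 1.38 ± 0.603 CPM (log2 fold change 1.58, SE 0.39, edgeR adjusted p = 0.0301), a call lost in 5 of 13 alternatives (adjusted p up to 0.228).

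Inside the pathway, 1 of 5 NF-kB subunits was called in COAD, beside 2.55% of all genes. It was RELB, a subunit of the non-canonical branch that is itself induced by NF-kB, with a log2 fold change of 0.44 (SE 0.11, edgeR adjusted p = 0.03). Of 10 other inhibitors and feedback genes, BCL3 and CYLD were called, with log2 fold changes of 0.62 (SE 0.16) and 0.23 (SE 0.055) and edgeR adjusted p of 0.0373 and 0.0265. BCL3 is a nuclear IkB protein that can act with NF-kB dimers, and CYLD is a deubiquitinase that restrains the pathway. None of 21 upstream kinases and adaptors was called in COAD (2 had an unadjusted p under 0.05 in edgeR, and DESeq2 called 1), nor any of 10 tested receptors that signal to NF-kB (4 had an unadjusted p under 0.05, and DESeq2 called 0). KHSRP, an RNA-binding protein that promotes the decay of cytokine mRNAs, was the lower gene of the lists (log2 fold change -0.18, SE 0.046, edgeR adjusted p = 0.0399). Leaving out single libraries ended the calls of RELB and CYLD in 3 cases each (adjusted p up to 0.185 and 0.158), of BCL3 in 4 (up to 0.192) and of KHSRP in 5 (up to 0.251).

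In TNBC, where 21% of all genes were called and 11.3% were lower, 10 of 20 other induced genes were called, 8 lower and 2 higher. SAA2, a serum amyloid protein, fell from 1.48 ± 0.378 to 0.479 ± 0.123 CPM (log2 fold change -1.62, SE 0.30, edgeR adjusted p = 0.00267), and ICAM1, the leukocyte adhesion molecule, from 16.3, 13.8 and 15.8 CPM to 7.96, 8.82 and 8.90 CPM (log2 fold change -0.84, SE 0.094, edgeR adjusted p = 9.16e-05). Of 14 tested cytokines, 4 were lower and 1 higher. LIF, a cytokine of the interleukin-6 family, fell from 15.2 ± 1.93 to 7.21 ± 0.649 CPM (log2 fold change -1.08, SE 0.11, edgeR adjusted p = 4.57e-05). CCL2, the monocyte chemokine, went from 1.11 ± 0.412 to 0.442 ± 0.0575 CPM (log2 fold change -1.32, SE 0.34, edgeR adjusted p = 0.0169; up to 0.0918 when single libraries were left out).

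The counts that follow stand beside 21% of all genes called in TNBC, 9.65% higher and 11.3% lower. Of 11 tested receptors that signal to NF-kB, 3 were lower and 1 higher in TNBC. TNFRSF12A, the receptor of the cytokine TWEAK, fell from 147 ± 10.3 to 95.4 ± 6.94 CPM (log2 fold change -0.62, SE 0.061, edgeR adjusted p = 5.80e-05). TLR2, a sensor of bacterial lipoproteins, gave -0.71 (SE 0.14, edgeR adjusted p = 0.00381). Of 5 tested receptors and antagonists of the member cytokines, 1 was called, a share close to that of all genes. It was IL1RAP, the shared chain of interleukin-1 receptors, which gave -0.38 (SE 0.047, edgeR adjusted p = 0.000161). IL1RAP fell alike in PAAD (-0.39, SE 0.064, edgeR adjusted p = 0.00126). It was not called in PRAD (-0.31, SE 0.068, edgeR adjusted p = 0.0603) or COAD (-0.017, SE 0.15, edgeR adjusted p = 0.977). Among 21 kinases and adaptors, 2 were lower and 1 higher, a share below that of all genes in TNBC. MYD88, the adaptor of Toll-like and interleukin-1 receptors, gave -0.36 (SE 0.049, edgeR adjusted p = 0.000295) and TRADD, the adaptor of the tumor necrosis factor receptor, gave -0.27 (SE 0.078, edgeR adjusted p = 0.0292). Of 11 inhibitors, 2 were lower and 2 higher. BCL3 fell (log2 fold change -0.36, SE 0.064, edgeR adjusted p = 0.0026) and CYLD rose (0.28, SE 0.043, edgeR adjusted p = 0.000864). RELB gave -0.30 (SE 0.099, edgeR adjusted p = 0.049), a call lost in 8 of 14 alternatives (adjusted p up to 0.18). Of the 9 genes that control the decay of cytokine mRNAs, 3 were lower and 1 higher, with ZFP36, which destabilises such mRNAs, at -0.26 (SE 0.069) and ELAVL1, which stabilises them, at -0.19 (SE 0.060), and edgeR adjusted p of 0.0183 and 0.0433. Of these genes, TRADD lost its call in 5 of 14 alternatives (adjusted p up to 0.107), ELAVL1 in 5 (up to 0.169) and ZFP36 in 2 (up to 0.0728).

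The difference between TNBC and COAD was called for BCL3 (-0.98, SE 0.16, edgeR adjusted p = 0.000212) and RELB (-0.75, SE 0.16, edgeR adjusted p = 0.00331), which had been called higher in COAD and lower in TNBC. It was also called for C3 (-1.24), LCN2 (-1.84), IL32 (-1.63), LIF (-1.14), ICAM1 (-1.06), CCL2 (-1.69), TNFRSF12A (-0.70) and MYD88 (-0.33), with edgeR adjusted p between 5.69e-11 and 0.0312. A called difference need not mean opposite directions. LIF, CCL2, TNFRSF12A and MYD88, for example, were not called in COAD (edgeR adjusted p = 0.861, 0.38, 0.671 and 0.778). CYLD rose in both lines, and its difference, 0.043 (SE 0.073), was not called (edgeR adjusted p = 0.835). Not called either were SAA2 (edgeR adjusted p = 0.0662), TRADD (0.0946), IL1RAP (0.112), KHSRP (0.116), ZFP36 (0.241), TLR2 (0.637) and ELAVL1 (0.85). CSF3 was at 0 in all TNBC libraries, so its difference could not be estimated. Over all genes, 7.85% differed in either direction. The genes set against each other here were named for a large change in COAD or TNBC, which favours a difference.

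**Figure D5:**
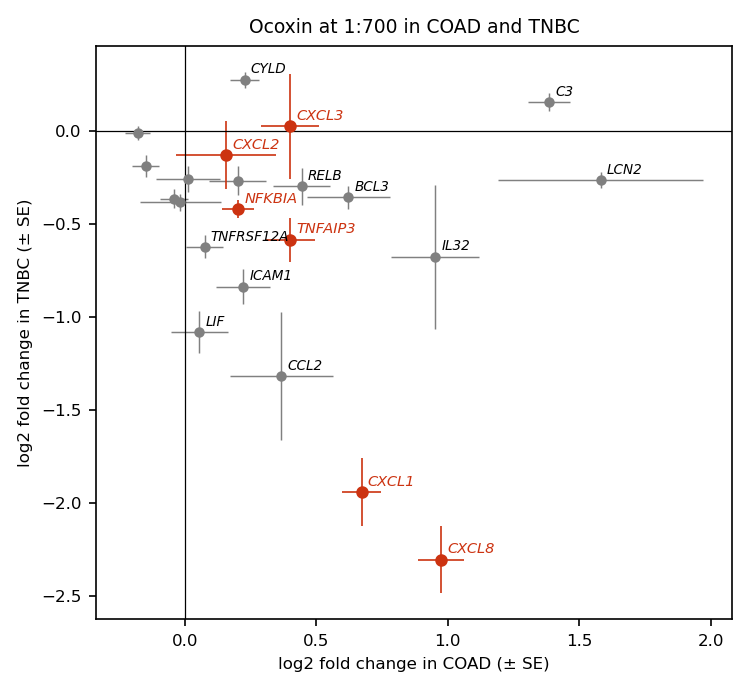
Log2 fold change with Ocoxin at 1:700 in COAD (x axis) and TNBC (y axis), ± SE from edgeR, for the members tested in both lines (red) and the named pathway genes (grey, labelled where either value is at least 0.4 in size, and CYLD). CXCL1 and CXCL8 lie lowest on the y axis, at -1.94 and -2.30, with positive values of 0.67 and 0.97 on the x axis.

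In PAAD, the calls of the lists went both ways. LIF rose from 46.2, 56.2 and 50.0 CPM to 90.2, 94.5 and 99.8 CPM (log2 fold change 0.90, SE 0.073, edgeR adjusted p = 1.51e-06), opposite to its fall in TNBC, and the difference between these lines was 1.98 (SE 0.14, edgeR adjusted p = 1.58e-10). NFKBIZ, a nuclear IkB protein, and IRAK2, a kinase below interleukin-1 receptors, rose with log2 fold changes of 0.35 (SE 0.062) and 0.40 (SE 0.054) and edgeR adjusted p of 0.00273 and 0.000269, the first up to 0.0888 over the alternatives. RBCK1, a subunit of the linear ubiquitin ligase, gave 0.34 (SE 0.064, edgeR adjusted p = 0.00356). The receptor chain of interleukin-6, IL6R, rose (0.51, SE 0.11, edgeR adjusted p = 0.00775), whereas IL1R1, the receptor of IL1A and IL1B, fell (-0.48, SE 0.098, edgeR adjusted p = 0.00645).

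Of 13 receptors that signal to NF-kB, 2 were called higher and 2 lower in PAAD, beside 8.33% of all genes called. TLR4 was among the higher ones (log2 fold change 0.51, SE 0.080, edgeR adjusted p = 0.00099). Of 17 tested cytokines, 3 were higher and 3 lower, and of 23 other induced genes also 3 and 3. The genes that follow fell in PAAD. TLR5, the flagellin sensor, gave a log2 fold change of -0.98 (SE 0.17), LTB, lymphotoxin beta, -0.97 (SE 0.23), TNFRSF9, a receptor of the tumor necrosis factor family, -0.86 (SE 0.15) and MMP9, a matrix protease, -0.86 (SE 0.12), with edgeR adjusted p between 0.000275 and 0.0166. LTB lost its call in 2 of 14 alternatives (adjusted p up to 0.0776). CD40, another receptor of that family, gave -0.53 (SE 0.15, edgeR adjusted p = 0.0401) and lost its call in 6 of 14 alternatives (adjusted p up to 0.184). In PRAD, the called genes were IL6R, which went from 119 ± 7.62 to 146 ± 8.16 CPM (log2 fold change 0.30, SE 0.060, edgeR adjusted p = 0.0472), and TNFSF15, a cytokine of the tumor necrosis factor family, which went from 41.2 ± 0.731 to 54.2 ± 3.799 CPM (0.40, SE 0.067, edgeR adjusted p = 0.0296). They lost the call in 8 and 6 of 13 alternatives (adjusted p up to 0.131 and 0.217).

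To see which genes varied most like the neutrophil chemokines, log2 CPM was centred within COAD, PAAD and TNBC and correlated over the 18 libraries with the mean of CXCL1, CXCL2, CXCL3 and CXCL8. Of 14316 genes tested in all 3 lines, those with the highest Pearson r outside the 10 members were MAFF (0.91), EMP1 (0.90), CDKN1A (0.90), LOXL2 (0.89) and SOX4 (0.89). NFKBIA and TNFAIP3 gave 0.95 and 0.89. Of the genes in the profile, CXCL8 and CXCL1 gave 0.99 and 0.97, but CXCL2 and CXCL3 gave 0.55 and 0.46. The profile is therefore mainly that of CXCL8 and CXCL1. The libraries share treatment groups, so r describes mainly the same contrast. MAFF, a small MAF transcription factor, had log2 fold changes of 0.50 in COAD and -0.88 in TNBC, and CDKN1A, the cell cycle inhibitor p21, 0.53 and -1.16. EMP1 gave 0.40 and -0.47, LOXL2 0.33 and -0.85, and SOX4 0.097 and -0.34. LOXL2 and SOX4 were not called in COAD (edgeR adjusted p = 0.293 and 0.292). In PAAD, EMP1 was called lower (-0.20, edgeR adjusted p = 0.0171) and CDKN1A higher (0.28, edgeR adjusted p = 0.0146). MAFF, LOXL2 and SOX4 were not called there. These values describe genes chosen for this profile and are no test of it.

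Reads that fit more than 1 place were counted once at their primary place, so the related chemokines CXCL1, CXCL2 and CXCL3 were checked for shared sequence. Of the 50-base words in the exons of CXCL2, 12.6% also occur in CXCL1 or CXCL3, against 4.36% of those of CXCL1 and 5.94% of those of CXCL3. CXCL1 and CXCL3 share 0 such words with each other. Of the exonic bases of TNFAIP3, 95 are shared with the antisense gene WAKMAR2.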

How the data were processed

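The authors used fastp for trimming, STAR for alignment (hg38), picard against PCR duplicates and featureCounts 2.0.3 for counting primary alignments on exons. The deposited values are whole counts per gene, not normalized, in a table of PRAD and a table of the other lines, made with the paired-end option, in which a fragment mostly gave 2 counts. Strand was not used.

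Counts were analysed in R 4.3.3. Genes were filtered with filterByExpr (minimum count 10), scaled with TMM and tested with the robust quasi-likelihood fit and two-sided test of edgeR 4.0.16, with Benjamini-Hochberg adjustment over all genes and a threshold of 0.05. DESeq2 1.42.0, DESeq2 size factors, other filters, halved counts, removal of length and GC trends, a replicate block, joint fits and leaving out each library were the alternatives. The test was run on simulated data with known changes first. CPM and RPKM were computed from the counts, with exonic lengths from the tables. No columns were left unused.

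Named were the 10 members in every line, up to 2 called genes with the largest log2 fold change per pathway list and line (mean CPM of at least 1 in the higher group, no overlap between groups), and the 5 genes most alike. TLR4 in PAAD and IL1RAP outside TNBC are given beside these. Of the 115 pathway genes, SOD2 had no match. The members and lists were chosen with earlier results of these data known.

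Controls and Ocoxin libraries share replicate numbers. After subtracting group means, same-number libraries correlated above 0.1 for every number only in TNBC (0.127, 0.120 and 0.358). There the block left all 4 member calls unchanged. PRAD came close, with 0.244, 0.0997 and 0.425. COAD gave 0.164, 0.0123 and 0.260, and PAAD 0.132, 0.0726 and 0.247. This cutoff does not settle which lines were paired. The groups rest on the letters in the titles, because the labels give the dilution for controls as well.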

Additional observations from a re-analysis of the deposited data

Results flagged for a closer look

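The response to Ocoxin differed in 13 comparisons of a gene between 2 lines, by the interaction test of edgeR over 18 libraries (adjusted p under 0.05). Over all genes, 7.85% differed between TNBC and COAD, 4.56% between PAAD and TNBC and 3.96% between PAAD and COAD. TNBC minus COAD gave -2.62 for CXCL1, -3.28 for CXCL8, -0.99 for TNFAIP3 and -0.63 for NFKBIA on the log2 scale. PAAD minus TNBC gave 1.87 for CXCL1, 2.22 for CXCL8, 0.58 for TNFAIP3 and 0.36 for NFKBIA. PAAD minus COAD gave -0.74 for CXCL1, -1.06 for CXCL8, -0.65 for CCL20, -0.41 for TNFAIP3 and -0.26 for NFKBIA. The last 2 calls were lost under 9 and 15 of 25 alternatives. PAAD was treated at another dilution than COAD and TNBC, so line and dilution cannot be told apart in its differences.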

How the results depend on the processing

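No result changed direction past its threshold under any alternative run. The count of called members in COAD (4), in TNBC (4) and between TNBC and COAD, PAAD and TNBC, and TNBC and COAD controls moved by at most 1.5 times under each. In PRAD, 1 member (TNFAIP3, with adjusted p of 0.0325, 0.0171 and 0.00965) was called in place of 0 with no filter on low counts, with the replicate block and with all 24 libraries in 1 fit; the unadjusted p of the main test of TNFAIP3 was 0.00814 and DESeq2 called 0. With at least 10 counts in every library, 6 members in place of 10 differed between PAAD and COAD controls and between PAAD and TNBC controls, since fewer genes were tested. Called pathway genes in PRAD (2) became 5 with DESeq2, 1 with DESeq2 size factors, 7 with no filter, 7 with length and GC trends removed, 8 with the block and 8 with all 24 libraries. In TNBC the block ended no pathway call and no member call. It gave 32 pathway genes in place of 16 in COAD and 42 in place of 23 in PAAD. Nothing says that libraries of the same number were handled together in any line. In COAD 5 of 6 libraries, in PAAD and PRAD 6 of 6 and in TNBC 4 of 6 correlated best with their own number. The block also called CXCL3 (edgeR adjusted p = 0.00486) and NFKBIA (0.00432) in COAD, where it called 10.9% of all genes (23.1% in PAAD, 8.5% in PRAD). Leaving out single libraries gave 7 to 20 pathway genes in COAD, 0 to 2 in PRAD and 21 to 34 in TNBC, 1 to 3 members in PAAD and 3 to 5 members for the difference between PAAD and COAD; the low values came without control 2 in PAAD, control 2 or Ocoxin 2 in COAD, Ocoxin 1 in TNBC. The cause was not tested. Of the values of single genes, 1912 kept their side of the threshold, 104 lost a call and 21 gained one. In PRAD, the line with the lowest total counts, 8 of 10 members were too low to test, and in TNBC, with the highest, 4 were. Total counts of PRAD and TNBC do not compare directly, since a fragment mostly gave 2 counts in TNBC. Depth and low expression were not told apart.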
